A study of Mus musculus with 6 samples.

Results

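The genes described here encode the working parts of the lysosome: its transcriptional regulators, its membrane proteins, its acid hydrolases with their lipid carriers, and the proton pump that acidifies it. The list holds 46 genes, chosen by name, with cathepsin peptidases other than Ctsa left out. Each gene was read from its brightest probe set, by the mean of the 6 arrays. Of the 46 genes, 45 were measured, among 18029 genes in all. Atp6v0c, the proteolipid that forms the ring of the pump's membrane sector, was not analysed here.

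Liver RNA was measured on 6 Affymetrix arrays, 1 mouse each, from 3 RECS1-flox controls and 3 RECS1-HKO mice lacking RECS1 in hepatocytes. Both genotypes shared the strain (C57BL/6), the age (16 weeks) and a high-fat diet that had lasted 8 weeks. The sources used here do not give the promoter that drove the recombinase or the sex of the mice, and other liver cells keep RECS1 by the design. The gene RECS1 appears in current annotation as Tmbim1. Its product is a membrane protein reported in endosomes and lysosomes, which raises the question of whether lysosomal transcripts differ when hepatocytes lack it.

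Lysosomes degrade proteins, glycans and lipids delivered by endocytosis and autophagy, and in liver they also free fatty acids and cholesterol from lipid stores. Many of their genes share the E-box-like CLEAR element in their promoters, which TFEB and its relatives TFE3 and MITF bind when they enter the nucleus. The activity of these factors is set largely by phosphorylation and location, so their own transcript level is only part of their control. Hydrolases work at the low pH that the vacuolar-type ATPase maintains, whose V1 sector hydrolyses ATP and whose V0 sector carries protons across the membrane.

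The deposited values are log2 intensities, and the array medians lay between 3.92 and 3.95. All 9 measured hepatocyte markers lay above the median gene, whose mean was 4.69, and none of them passed the test below. In 2 of these 9 all HKO values lay above all control values (22.2%, against 8.58% of all genes). In 2 they lay below (22.2%, against 10.1%). With no adjustment, Hnf4a and Fgb, both lower in HKO livers, had a p under 0.05 (limma, 22.2%, against 13% of all genes). Whether the share of hepatocytes differed was not tested. Tmbim1 stood at 7.62, 7.58 and 7.74 in the controls and at 7.19, 7.14 and 7.06 in HKO livers (log2 values). It fell by 0.52 ± 0.08 (log2 fold change ± SE, n = 3 each, limma, Benjamini-Hochberg adjusted p = 0.026). This left 0.697 times the control level, so most of the array signal of Tmbim1 remained. With all arrays its groups did not overlap. In the 6 fits that left out 1 array each, its log2 fold change lay between -0.55 and -0.475. Its adjusted p lay between 0.065 and 0.0967 in these fits. This check of the labels therefore kept its direction and size but did not hold at the threshold, whichever array was left out.

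The promoters of the measured genes were searched for the CLEAR palindrome GTCACGTGAC, for its inner 8 bases TCACGTGA and for the core CACGTG, each of which reads the same on both strands and contains the next. The 250 bases before each annotated start were used, from RefSeq (GRCm38.p6), for the 39 measured lysosomal genes and the 14324 measured genes that have an entry. The core was found in 13 of the 39 lysosomal genes (33.3%) and in 8.75% of all genes. The inner 8 bases were found in 5 of 39 (12.8%) and in 1.32% of all genes, and the full palindrome in Cln3 alone (2.56%, against 0.44%). The element is already known from promoters of lysosomal genes, so higher shares in this list are no independent result. Stretches of 30 bases are shown to let the element be read in its context, 5′ to 3′ on the gene's strand, with the longest match in capitals. They are a selection of the genes with a match. Arsa has the core alone, and Gla, with 2 copies of the inner 8 bases, is left out.
Cln3: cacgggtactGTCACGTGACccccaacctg
Mcoln1: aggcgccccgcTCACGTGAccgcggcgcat
Ctsa: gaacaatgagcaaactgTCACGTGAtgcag
Atp6v1a: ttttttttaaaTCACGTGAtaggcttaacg
Arsa: cttcaactcagtgtCACGTGttgtctgctc
These stretches lie at chr7:126583340-126583369 (minus strand) for Cln3, chr8:3500462-3500491 (plus) for Mcoln1 and chr2:164833743-164833772 (plus) for Ctsa. Those of Atp6v1a and Arsa lie at chr16:44139373-44139402 and chr15:89477425-89477454, both on the minus strand. Cln3 and Ctsa have 2 starts each in the table, and only the downstream start has the match.

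The promoter of Lamp1, which encodes the most abundant class of lysosomal membrane glycoprotein, is shown in full because it holds 4 copies of the core, with centres between 58 and 12 bases before the start. It was chosen after the search had been run. The 250 bases lie at chr8:13158911-13159160 on the plus strand of GRCm38.p6, and capitals mark the cores.
Lamp1: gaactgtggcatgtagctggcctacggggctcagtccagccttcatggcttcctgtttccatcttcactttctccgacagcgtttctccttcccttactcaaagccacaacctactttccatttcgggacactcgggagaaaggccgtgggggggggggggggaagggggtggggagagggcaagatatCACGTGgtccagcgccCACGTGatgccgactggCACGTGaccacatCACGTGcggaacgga
The 13 lysosomal genes with the core had a median log2 fold change of -0.0042, with 5 positive values, and the 26 without it one of 0.04, with 16 positive values. A match of letters is a description of these windows and not a measured binding site.

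The comparison of the genotypes found no gene of the list that differed at the threshold. Of 45 measured genes, 0 passed (limma, Benjamini-Hochberg adjusted p under 0.05 over all 18029 genes), where 1.01% of all genes passed, 0.56% higher in HKO livers and 0.449% lower. With no adjustment, 5 of 45 (11.1%) had a p under 0.05, against 13% of all genes. Of these, 4 were higher (Tfeb, Hexa, Fuca1 and Arsa, 8.89% against 6.03% of all genes) and Atp6v0a1 was lower (2.22% against 6.96%). The fitted log2 fold changes ran from -0.30 for Atp6v0a1 to 0.38 for Hexa. Their median was 0.0029, beside -0.0041 over all genes, and 24 of 45 (53.3%) were positive, beside 48.8% of all genes. RNA of a whole liver was measured, so fewer cells of a type and less RNA per cell cannot be told apart.

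The intervals say how large a difference could have gone unseen. By the brightest probe set, the 95% interval of the fold change lay within 1.5-fold in either direction for 44 of the 45 genes. The same was so for 92.2% of all genes. The exception was Hexa, whose interval reached 0.73 on the log2 scale. The intervals of dimmer probe sets, above the median gene, also reached past this limit (0.585) in Lipa (0.72) and Lamp2 (0.587). Simulated data of the same size had noise drawn independently for each gene, at the spread limma estimated for it. There, 4% of the changed genes were called at a change of 0.25 log2 units, 62% at 0.5 and 98% at 1. The changed genes were drawn from all genes, not from the list. The median SE was 0.093 over all genes and 0.088 over the lysosomal genes. Genes that shift together within an array, as seen below, were not simulated.

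**Figure D1:**
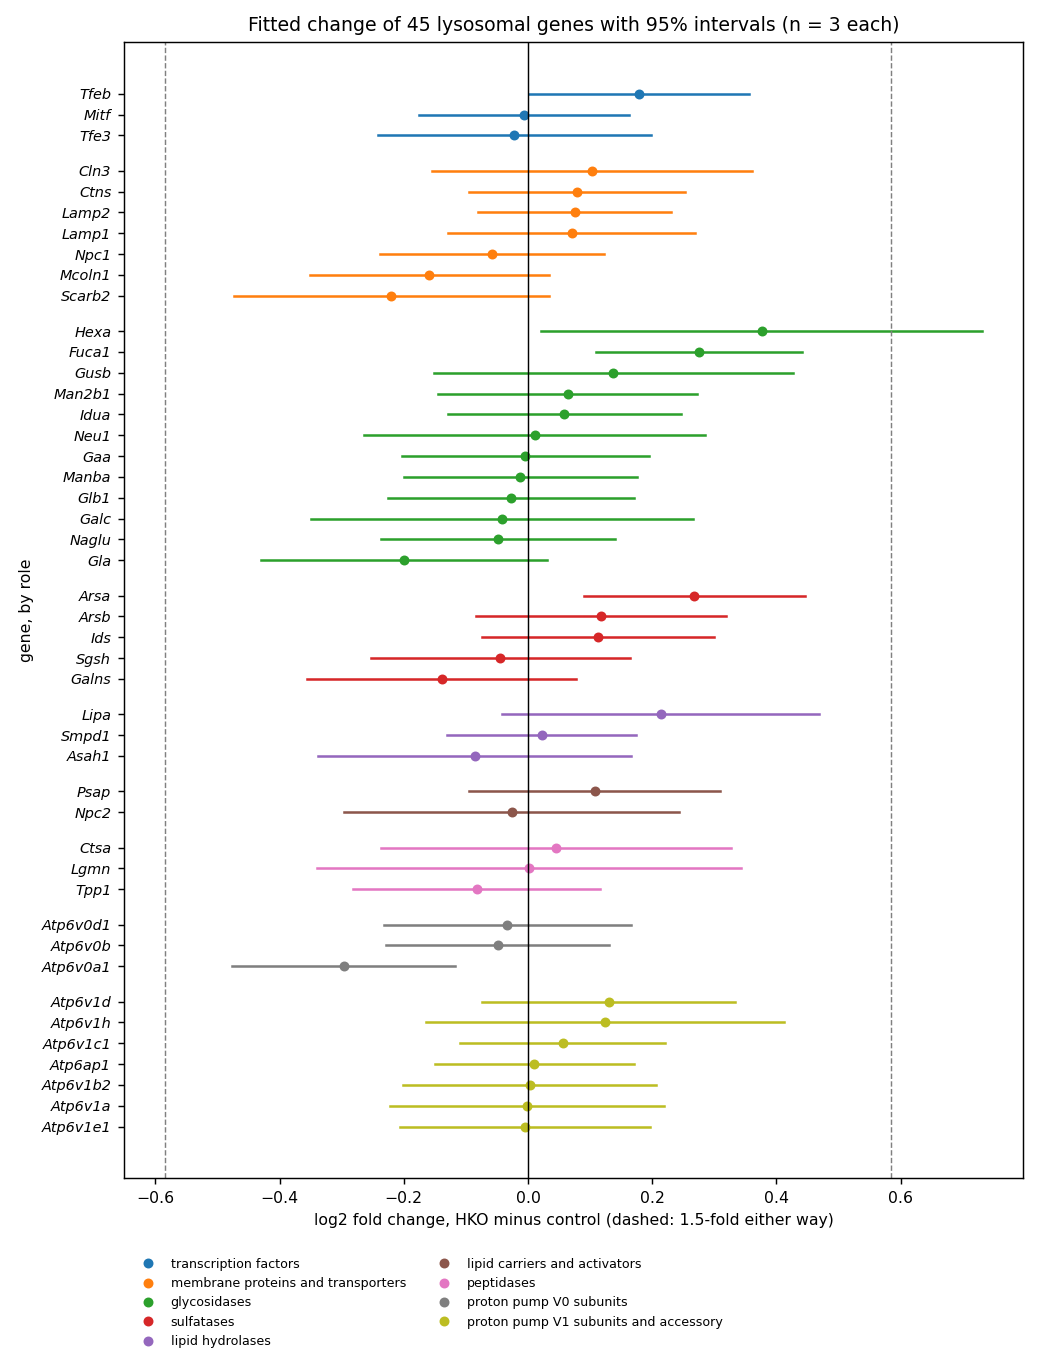
Log2 fold change, HKO minus control, of the 45 measured lysosomal genes, grouped by role, with 95% intervals from limma as horizontal lines (n = 3 arrays each). The dashed lines mark 1.5-fold either way, and only the interval of Hexa, which reaches 0.73, crosses one of them.

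Among the regulators, Tfeb, the master activator of lysosomal genes, stood at 4.75, 4.80 and 4.80 in the controls and at 4.95, 5.06 and 4.87 in HKO livers (log2 values). All 3 HKO values lay above all 3 control values, and the difference was 0.18 ± 0.08 (log2 fold change ± SE, adjusted p = 0.381). Tfe3, a relative that binds the same element, stood at 6.18, 6.09 and 6.20 against 6.24, 5.95 and 6.22, with overlapping groups and a difference of -0.02 ± 0.10 (0.952). Mitf, the third relative, is best known from pigment cells and differed by -0.01 (log2 fold change).

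Of the 7 membrane proteins and transporters, 0 passed, and their median log2 fold change was 0.07. Lamp2, which shields the lysosomal membrane and is needed for the fusion of autophagosomes, stood at 11.07, 11.13 and 11.13 in the controls and at 11.20, 11.19 and 11.17 in HKO livers (log2 values). The groups did not overlap, although the difference was only 0.07 ± 0.07 (log2 fold change ± SE, adjusted p = 0.702). Its other probe sets stood at -0.09 and 0.32 (log2 fold change), so they differ in sign.

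Scarb2, also called LIMP-2, carries the enzyme glucocerebrosidase to the lysosome. Its values were 10.21, 10.12 and 10.11 in the controls and 10.09, 10.003 and 9.69 in HKO livers (log2 values). Each HKO liver was below the lowest control, with HKO 3 furthest away, and the difference was -0.22 ± 0.11 (log2 fold change ± SE, adjusted p = 0.456). Without HKO 3 it was -0.10, and a dimmer probe set of the gene stood at -0.06.

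Mcoln1 encodes the calcium channel through which lysosomes signal to TFEB. It stood at 6.08, 6.13 and 6.09 in the controls and at 6.07, 5.82 and 5.93 in HKO livers (log2 values), so that every HKO liver was lower, HKO 1 only just. The difference of -0.16 ± 0.08 (log2 fold change ± SE) did not pass (adjusted p = 0.481) and was -0.10 without HKO 2. A dimmer probe set, still above the median gene, stood at 0.01. The other members of this role were Cln3, the membrane protein altered in a form of Batten disease (0.10), the cystine exporter Ctns (0.08), Lamp1 (0.07) and the cholesterol exporter Npc1 (-0.06), as log2 fold changes.

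Of the 12 glycosidases, which remove sugars from glycoproteins, glycolipids and glycogen, 0 passed. Their log2 fold changes ran from -0.20 for Gla, the alpha-galactosidase, to 0.38 for Hexa, with a median of 0.0032. Hexa encodes the alpha subunit of beta-hexosaminidase, which degrades GM2 ganglioside. It stood at 9.001, 8.64 and 8.78 in the controls and at 9.03, 8.99998 and 9.52 in HKO livers (log2 values). HKO 2 lay level with control 1, so the groups overlapped, and HKO 3 stood apart above both. The difference of 0.38 ± 0.15 (log2 fold change ± SE, adjusted p = 0.357) was 0.21 without HKO 3.

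Fuca1, the alpha-fucosidase, was the glycosidase with the lowest p. It stood at 8.62, 8.53 and 8.53 in the controls and at 8.90, 8.80 and 8.81 in HKO livers (log2 values). Within each genotype the arrays spanned no more than 0.10 log2 units, and the groups were apart. The difference of 0.28 ± 0.07 (log2 fold change ± SE), or 1.21 times the control level, did not pass over all genes (unadjusted p = 0.00505, adjusted p = 0.166, limma). Its other probe sets above the median gene had smaller differences of 0.08 and 0.10 (log2 fold change), and its last, dimmer one stood at 0.0032.

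The acid alpha-glucosidase Gaa, which degrades glycogen, stood at -0.0042 and the beta-galactosidase Glb1 at -0.03 (log2 fold change). Gusb and Neu1 are given next because of their HKO values, after these were seen. Gusb, the beta-glucuronidase, stood at 6.78, 6.82 and 6.80 in the controls, close together, but at 6.85, 6.73 and 7.23 in HKO livers (log2 values). The sialidase Neu1 had the same form, with controls at 6.27, 6.26 and 6.24 and HKO livers at 6.38, 5.99 and 6.44. In both, HKO 2 was the lowest and HKO 3 the highest of all 6 livers.

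Man2b1, an alpha-mannosidase that trims glycoprotein sugars, stood at 9.73, 9.52 and 9.46 in the controls and at 9.63, 9.57 and 9.70 in HKO livers (log2 values). The groups overlapped, with a difference of 0.06 ± 0.09 (log2 fold change ± SE, adjusted p = 0.816), and a dimmer probe set had the opposite sign at -0.12. The remaining 5 glycosidases lay between -0.20 and 0.06 (log2 fold change): Gla, Galc, the beta-mannosidase Manba, and Idua and Naglu, which degrade glycosaminoglycans.

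The 5 sulfatases remove sulfate from glycosaminoglycans and sulfolipids, and 0 of them passed. Arsa, the arylsulfatase that degrades sulfatide, stood at 7.84, 7.91 and 7.88 in the controls and at 8.18, 8.04 and 8.22 in HKO livers (log2 values). The groups did not overlap, and the lowest HKO value lay 0.13 above the highest control. The difference was 0.27 ± 0.08 (log2 fold change ± SE), or 1.2 times the control level, with an unadjusted p of 0.00836 and an adjusted p of 0.199 (limma).

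Galns, which acts on keratan sulfate and chondroitin sulfate, stood at 5.31, 5.44 and 5.34 in the controls and at 5.05, 5.31 and 5.32 in HKO livers (log2 values). HKO 1 was low and the other HKO livers reached the control range, with a difference of -0.14 ± 0.09 (log2 fold change ± SE, adjusted p = 0.593) that was -0.05 without HKO 1. Ids, the iduronate sulfatase, stood at 7.40, 7.34 and 7.48 in the controls and at 7.62, 7.44 and 7.50 in HKO livers. Its groups overlapped, and the difference was 0.11 ± 0.08 (0.618; 0.06 without HKO 1) by this probe set and -0.14 by a dimmer one just above the median gene. Arsb, which acts on dermatan sulfate, stood at 0.12 and Sgsh, the heparan sulfamidase, at -0.04 (log2 fold change).

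Among the lipid hydrolases, Lipa, the acid lipase that frees cholesterol and fatty acids from lipoprotein and droplet lipid, stood at 9.89, 9.96 and 10.04 in the controls. Its HKO values were 10.19, 9.97 and 10.38 (log2 values), with HKO 2 inside the control range and the other HKO arrays above it. The difference was 0.21 ± 0.11 (log2 fold change ± SE, adjusted p = 0.473), and 0.11 without HKO 3. Its 3 probe sets, all above the median gene, stood at 0.21, 0.14 and 0.37, and it was the only lipid hydrolase with a difference above 0.20 in size.

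The acid ceramidase Asah1 stood at 8.39, 8.30 and 8.34 in the controls and at 8.10, 8.17 and 8.50 in HKO livers (log2 values). HKO 1 and HKO 2 lay below the control range and HKO 3 above it, and the difference was -0.09 ± 0.11 (log2 fold change ± SE, adjusted p = 0.793). The sphingomyelinase Smpd1 was tight in both genotypes, with an SD of 0.01 in each, and differed by 0.02 (log2 fold change).

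Psap, the precursor of the saposins that present glycolipids to hydrolases, stood at 10.02, 9.88 and 9.86 in the controls and at 9.996, 9.93 and 10.16 in HKO livers (log2 values). The groups overlapped, with a difference of 0.11 ± 0.09 (log2 fold change ± SE, adjusted p = 0.668) that was 0.04 without HKO 3. Npc2, which hands cholesterol to Npc1, stood at 9.43, 9.24 and 9.40 against 9.30, 9.13 and 9.56, again with HKO 2 lowest and HKO 3 highest. Its difference was -0.03 ± 0.12 (0.953).

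The peptidases were Ctsa, which protects Neu1 and Glb1 in a complex, Tpp1 and Lgmn. Ctsa stood at 8.53, 8.37 and 8.31 in the controls and at 8.38, 8.26 and 8.71 in HKO livers (log2 values), which enclosed the control range. It differed by 0.04 ± 0.12 (log2 fold change ± SE, adjusted p = 0.915). Tpp1, a tripeptidyl peptidase, stood at 9.10, 8.98 and 9.08 against 8.94, 8.87 and 9.11, with overlapping groups. Its difference was -0.08 ± 0.09 (0.745), and its other probe set had the opposite sign at 0.07. Lgmn, the asparaginyl endopeptidase, had the widest control range of all 45 genes, 0.62 log2 units, with values of 7.38, 6.77 and 7.12, and a difference of 0.0012.

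**Figure D2:**
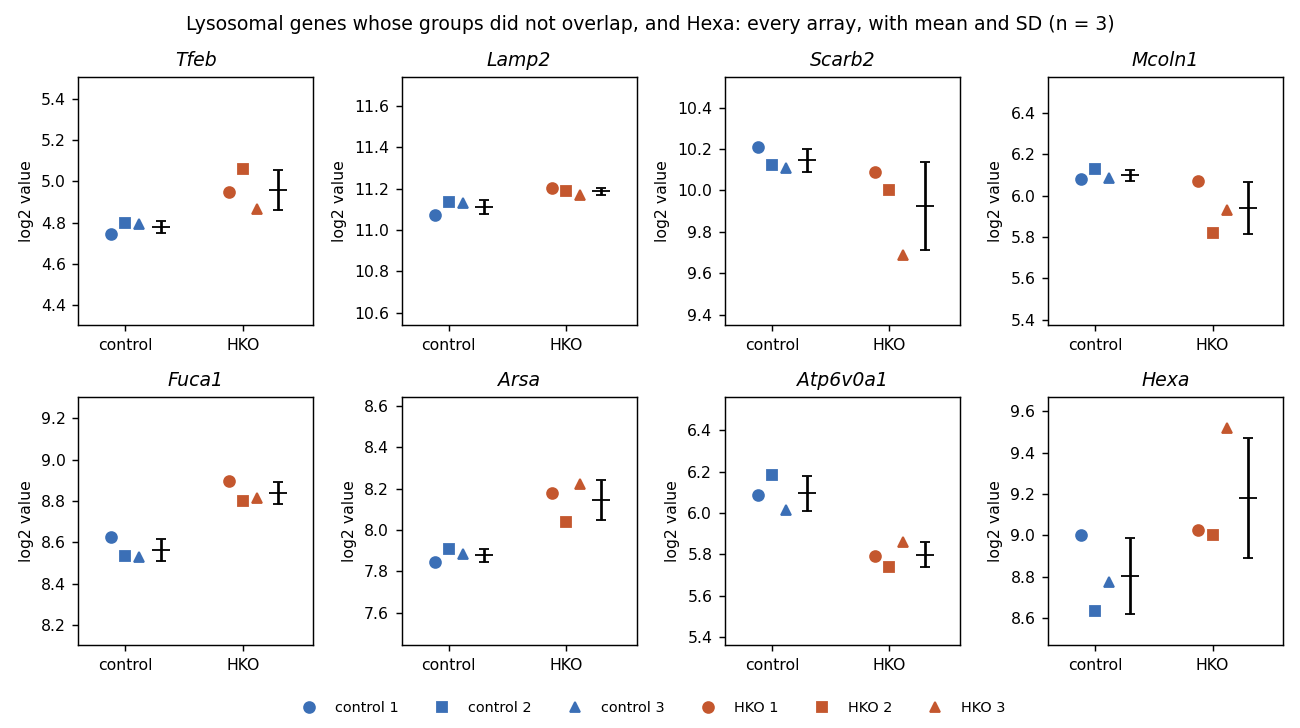
Log2 values in every array for the 7 lysosomal genes whose control and HKO values did not overlap, and for Hexa, with the mean and SD of each group (n = 3) beside the points. Every panel spans the same 1.2 log2 units, so the separation of Fuca1, Arsa and Atp6v0a1 can be set against the near contact of Mcoln1, Scarb2 and Lamp2.

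Of the 10 measured pump genes among the 45, 0 passed, where 1.01% of all genes did. Only Atp6v0a1 had groups that did not overlap, with HKO livers lower (10%, against 10.1% of all genes). In none were all HKO values higher (0%, against 8.58%). Atp6v0a1, an isoform of the large membrane subunit through which protons pass, stood at 6.09, 6.18 and 6.02 in the controls and at 5.79, 5.74 and 5.86 in HKO livers (log2 values). The highest HKO liver was below the lowest control. The difference was -0.30 ± 0.08 (log2 fold change ± SE), or 0.814 times the control level, and had the lowest p of all 45 genes, yet did not pass (unadjusted p = 0.00496, adjusted p = 0.165, limma). Its other 3 probe sets lay below the median gene and stood at 0.03, -0.11 and -0.13 (log2 fold change).

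Atp6v0b, a proteolipid of the membrane ring, stood at 8.79, 8.87 and 8.69 in the controls and at 8.69, 8.72 and 8.79 in HKO livers (log2 values), within the control range. Its difference was -0.05 ± 0.08 (log2 fold change ± SE, adjusted p = 0.839), and its other probe sets had the opposite sign at 0.07 and 0.11. Atp6v0d1, which couples the sectors, stood at -0.03 (log2 fold change).

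All 7 members of the V1 and accessory role lay between -0.0047 and 0.13 (log2 fold change), with a median of 0.01, and 0 passed. Atp6v1a, the catalytic subunit, stood at 7.34, 7.09 and 7.29 in the controls and at 7.21, 7.15 and 7.36 in HKO livers (log2 values). The groups overlapped, with a difference of -0.0022 ± 0.10 (log2 fold change ± SE, adjusted p = 0.996) and of 0.02 by a nearly as bright probe set.

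Atp6v1d, a subunit of the central stalk, stood at 8.25, 8.34 and 8.53 in the controls and at 8.48, 8.501 and 8.53 in HKO livers (log2 values). Control 3 lay level with HKO 3, and the difference was 0.13 ± 0.09 (log2 fold change ± SE, adjusted p = 0.594). It was 0.07 without control 1 and 0.21 without control 3, and other probe sets stood at -0.04 and 0.05. Atp6v1h, a regulatory subunit, stood at 7.92, 7.72 and 7.88 against 7.91, 7.76 and 8.23. HKO 3 alone lay above the controls, with a difference of 0.12 ± 0.13 (0.735). It was -0.0086 without HKO 3, 0.06 without control 2 and 0.23 without HKO 2. Atp6v1b2, Atp6v1c1, Atp6v1e1 and the accessory protein Atp6ap1 lay within 0.06 of 0.

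Groups that did not overlap were counted without a model. In 4 genes (Tfeb, Lamp2, Fuca1 and Arsa) all HKO values lay above all control values, 8.89% of 45, where 8.58% of all genes did so. In 3 genes (Scarb2, Mcoln1 and Atp6v0a1) they lay below, 6.67%, against 10.1% of all genes. The total of 7 (15.6%, against 18.7%) was 17 without HKO 2, 37.8% where 29.7% of all genes were then apart. It was 13 without control 1 (28.9%, against 28.1%) and 11 without HKO 3 (24.4%, against 27.2%). It was 10 without control 2 and 10 without control 3 (22.2% each, against 27.9% and 29.2%), and 7 without HKO 1 (15.6%, against 29.6%).

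The probe sets of a gene served as a further reading of the same RNA. Of the 45 genes, 31 had several probe sets and 17 had several above the median gene. In 8 of these 17 such probe sets differed in sign (Lamp2, Mcoln1, Man2b1, Ids, Tpp1, Atp6v0b, Atp6v1a and Atp6v1d). Of the 101 probe sets of the 45 genes, 0 passed when each was tested on its own (limma, adjusted over all named probe sets). In that fit the count past the threshold was 209 over the whole table, which holds 34325 single-gene probe sets. Calls were thus rare throughout, so 0 of 101 does not set the lysosomal genes apart.

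**Figure D3:**
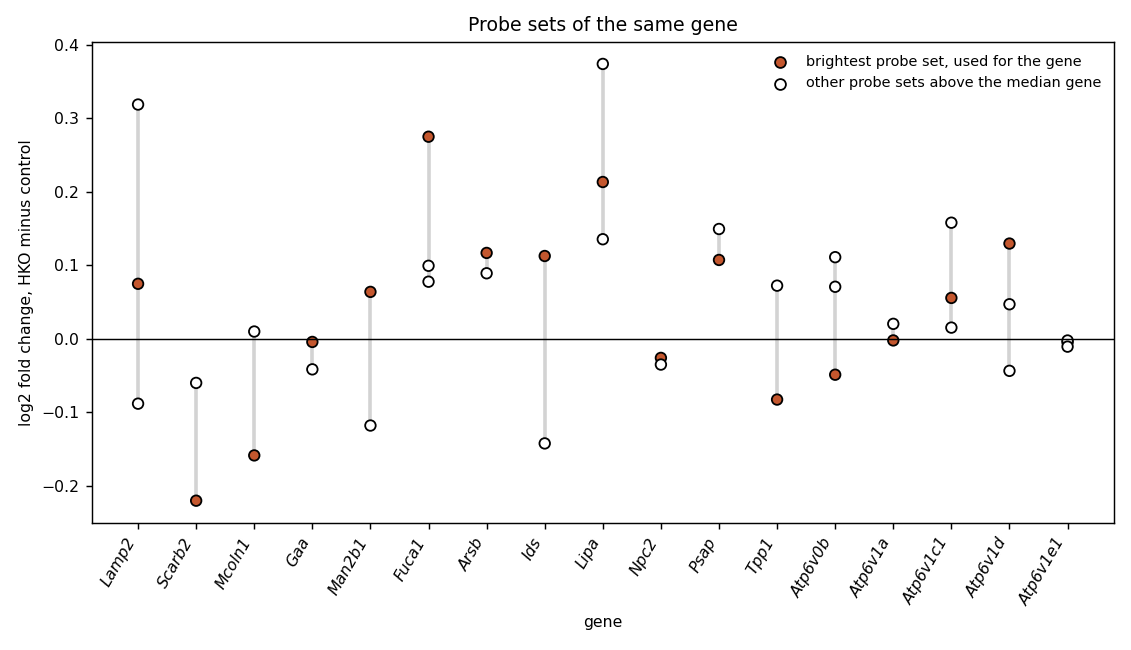
Log2 fold change, HKO minus control, of every probe set above the median gene for the 17 lysosomal genes with more than 1 such probe set. Filled points are the probe sets used for the gene and open points the others. The grey bars cross 0 in 8 genes, and the 3 probe sets of Lipa, from 0.14 to 0.37, all lie above it.

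Lysosomal values also differed among the livers of 1 genotype. Within the HKO group, HKO 2 had the lowest value of the 3 in 32 of 45 genes (71.1%), which was so for 33.8% of all genes and for 43% of those above the median gene. HKO 3 had the highest in 30 of 45 (66.7%), against 34.4% and 35.2%. HKO 3 and HKO 2 were then compared directly, a choice made after these ranks were seen. A gene with HKO 2 lowest or HKO 3 highest has HKO 3 above HKO 2 by necessity, so this restates the ranks in part. HKO 3 exceeded HKO 2 in 39 of 45 genes (86.7%, against 50.9% of all genes and 56.9% of those above the median gene). The median difference was 0.12 log2 units, beside 0.0040 and 0.03. No test was made of this pattern, since a genotype's arrays have no further grouping and the genes of 1 liver share their RNA sample.

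The pattern ran through several roles. HKO 2 was lowest in 11 of 12 glycosidases and in 6 of the 7 members of the V1 and accessory role. HKO 3 was highest in 7 of 12 glycosidases, in 4 of 5 sulfatases, in all 3 peptidases, in all 3 measured V0 subunits and in 6 of 7 of the V1 role. The largest gaps between these livers were those of Hexa (0.52), Galc, the galactosylceramidase (0.52), and Gusb (0.51). The gap ran the other way in Gla (-0.36), Scarb2 (-0.32), Tfeb (-0.19), Ctns (-0.14), Npc1 (-0.04) and Lamp2 (-0.02). Only 2 of the 7 membrane proteins were lowest in HKO 2.

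The choice of arrays therefore moved the centre of the list. The median log2 fold change of the 45 genes was 0.06 without HKO 2 and -0.03 without HKO 3, against 0.0029 with all arrays. In the controls, control 1 was highest in 23 of 45 genes (51.1%, against 37.9% of all genes). The median SD of the lysosomal genes was 0.07 in the controls and 0.11 in HKO livers, beside 0.10 in both over all genes, and the SD was larger in HKO livers in 27 of 45 genes (60%, against 51.1%).

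Macrophages, which are rich in lysosomes, were followed by 12 markers beside these values. None of the 12 passed, 11 lay above the median gene, and their summed linear signal ran from 3424 to 5135 in the controls and from 4068 to 4638 in HKO livers. Control 1 was highest in all 12 among the controls. HKO 2, low in lysosomal genes, was highest in 7 of the 12 among the HKO livers and HKO 3 in 4, and their median log2 fold change was 0.09. The part of macrophages in the lysosomal values was not tested.

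**Figure D4:**
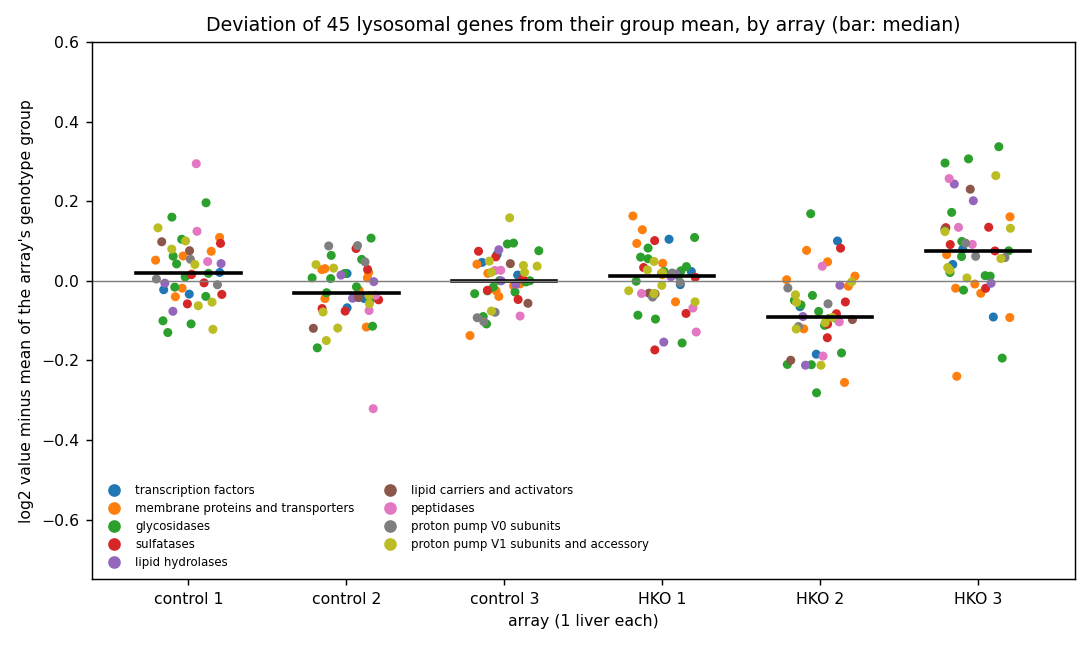
Deviation of each of the 45 lysosomal genes (points, coloured by role) from the mean of the array's own genotype group, in log2 units, for the 6 arrays, with the median as a black bar. The medians are -0.09 in HKO 2 and 0.08 in HKO 3, and the other 4 lie between -0.03 and 0.02.

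Other genes of the pathway were counted from lists that do not include the 46. Of 60 measured genes, 1 passed (1.67%, against 1.01% of all genes) and their median log2 fold change was -0.01. With no adjustment, 13 of the 60 had a p under 0.05 (21.7%, against 13% of all genes and 11.1% of the 45). In 5 of the 60 all HKO values lay above all control values (8.33%, against 8.58% of all genes), and in 10 they lay below (16.7%, against 10.1%). No test was made of these shares. None of 16 other hydrolases and cofactors passed (median -0.01), the lowest p being that of Gm2a, the GM2 activator that works with Hexa, at -0.32 ± 0.09 (log2 fold change ± SE, adjusted p = 0.201). A dimmer probe set of Gm2a, still above the median gene, stood at -0.18 with overlapping groups. None of 18 membrane proteins and sorting receptors passed (median -0.04), with the sorting receptor Sort1 at -0.39 ± 0.09 (0.0984). Another probe set of Sort1 above the median gene stood at -0.02. None of 15 genes of nutrient sensing passed (median -0.0058), with Fnip2, a partner of folliculin, at 0.70 ± 0.18 (0.162). The 13 genes comprised 4, 4 and 3 of these lists and 2 of the pump subunits below.

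Of 11 other pump subunits, 1 rose (9.09%, against 0.56% of all genes) and 0 fell (against 0.449%), with a median of -0.03. Tcirg1, an isoform of the same subunit as Atp6v0a1, named here after its values were seen, stood at 6.61, 6.44 and 6.44 in the controls and at 6.29, 6.16 and 6.30 in HKO livers (log2 values). Its groups did not overlap, and its difference of -0.25 ± 0.08 (log2 fold change ± SE, adjusted p = 0.261) did not pass. Atp6v0a2, a further isoform of this subunit in the same list, had overlapping groups and a difference of -0.12 ± 0.09 (0.640). The subunit that rose was Atp6v0d2, the alternative d subunit best known from osteoclasts and some macrophages. It stood at 3.70, 3.65 and 3.69 in the controls and at 4.68, 4.22 and 4.90 in HKO livers (log2 values), with both group means below the median gene. It rose by 0.92 ± 0.16 (log2 fold change ± SE), or 1.89-fold (limma, adjusted p = 0.041), from a dim control level. A dimmer probe set of the gene stood at 0.65. The call held without HKO 2 (adjusted p = 0.00331) and in none of the other 5 fits without 1 array, where the adjusted p lay between 0.0828 and 0.169. Its usual counterpart in the list of 46, Atp6v0d1, stood at -0.03. The difference between these subunits was not tested.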

How the data were processed

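The authors deposited log2 values for 38208 probe sets and 6 arrays. RMA and limma are named in the submitters' processing notes, and the sources used here do not give their versions or settings. RMA forces all arrays onto 1 distribution, which hides a change common to all transcripts, and it shrinks the differences of dim probe sets.

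Gene names come from the platform annotation, in which 34325 probe sets have 1 gene symbol, 62 have several, 3808 are unnamed here and 13 are controls. Each of 18029 genes took its brightest probe set by mean. The main test was limma's, version 3.58.1, in R 4.3.3 (lmFit, eBayes, two-sided, HKO minus control, no covariate), adjusted by Benjamini-Hochberg over all genes, with a threshold of 0.05. Levels were compared within a probe set only. Precision is limited by how few arrays there are.

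The lysosomal genes, the other lists and the tests were chosen with earlier results of these data known. Values in every array are given for the 2 genes with the lowest p in each of 9 roles, for genes whose groups did not overlap and for genes with probe sets that disagree above the median gene, 22 in all. Gusb, Neu1, Lgmn, Tcirg1 and Atp6v0a2 were named in addition, after their values were seen. From each other pathway list the gene with the lowest p is named. No pair of arrays was identical. The labels number 3 samples per genotype, taken here as 1 mouse each, without saying what a shared number means. The test was run on simulated data of 18029 genes, 50 changed by each of 0.25, 0.5, 1 and 2 log2 units, in which 6 of 138 calls were false. Motif counts and figures used Python 3.11.15 and matplotlib 3.10.9.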

Additional observations from a re-analysis of the deposited data

How the results depend on the processing

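None of the 45 lysosomal genes of the list passed in any fit: other normalization or centring, genes above the median gene, the median of the probe sets, each probe set alone, the probe set brightest in controls, eBayes with trend and robust, the replicate block, array weights, 1 array left out, or a threshold of 0.1 in the main setting. Of the 22 genes with values in every array, at 0.1 Fuca1 (adjusted p = 0.0807) and Atp6v0a1 (0.0878) would pass among genes above the median gene, and Fuca1 (0.085) with eBayes trend and robust. The genes past the threshold over the whole table were 182, and 344 at 0.1 and 78 to 161 without 1 array. Deviations of same-numbered arrays had correlations of -0.094, 0.069 and 0.11, against -0.15 to 0.078 for arrays with other numbers. By this measure 2 of 6 arrays were closest to their own number. So few arrays cannot show whether the replicate numbers pair the samples. With the replicate block 125 genes and 0 of the 45 lysosomal genes passed, and Tmbim1 (adjusted p = 0.0828) and Atp6v0d2 (0.0539) did not. The median log2 fold change of the lysosomal genes lay between -0.027 and 0.056 without 1 array. The genes with groups apart were 7 in the main setting. They were 9 with quantile normalization, 8 with centred arrays and 4 by the median of the probe sets. They were 11 with any probe set, where a gene with several has more ways to be counted, and 7 to 17 without 1 array. The shares of all genes for the counts 9, 8, 4 and 11 are not given here, so these counts cannot be read against them. By the median of the probe sets the sign turned for Lamp2 (-0.088), Mcoln1 (0.010), Man2b1 (-0.027), Atp6v0b (0.071), Atp6v1a (0.0091), Atp6v1d (-0.016) and Atp6v1h (-0.015), and values shrank for Fuca1 (0.089), Atp6v0a1 (-0.048), Galns (-0.027), Scarb2 (-0.14), Lipa (0.14), Ids (0.071) and Tpp1 (-0.0051), while Ctsa was larger (0.0995). Atp6v1a also turned with quantile normalization (0.0019) and array weights (0.018). Without 1 array, values spanned 0 for Tfe3 (-0.074 to 0.070), Npc2 (-0.14 to 0.074), Ctsa (-0.084 to 0.14), Atp6v1a (-0.077 to 0.048) and Atp6v1h (-0.0086 to 0.23). None of these passed in any fit, and the cause was not tested. Of the 45 genes, 3 lie below the median gene, where differences are shrunk.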
